A study of Mus musculus with 12 samples.

Results

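Megakaryocyte-erythroid progenitors (MEP) sorted from normal mouse marrow were compared, gene by gene, with control marrow titled bulk. The aim was to describe how the normal progenitor differed from that bulk marrow group. The study sequenced RNA from 12 samples in 4 groups, and 6 are used here. These are 3 samples of control MEP and 3 of control bulk marrow, both from wild-type C57BL/6 mice. None of the 6 carried the study's leukemic agent, Prdm16s, and both groups were sorted into Trizol before RNA extraction. Whether the 3 samples of a group are separate mice is not stated in the labels, so a p-value reflects only the scatter of these samples, which may be technical. The labels give no age and no sort gate for either group. Of 24107 genes in the table, 10648 had a value of at least 1 FPKM (fragments per kilobase of gene, scaled to library size) in at least 3 of the 6 libraries, and these were tested. Differences are MEP minus marrow in log2(FPKM + 1), a scale that shrinks the fold of weakly expressed genes, and are given ± the standard error. A gene is called where limma's Benjamini-Hochberg adjusted p is under 0.05.

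MEP are the marrow progenitors from which megakaryocytes, and so platelets, and red cells arise. In the mouse they are usually isolated as cells that lack lineage antigens and Sca-1, carry the stem cell factor receptor Kit, and lack CD34 and the Fc receptors CD16/32. Their erythroid program is run by GATA1, KLF1 and TAL1 with their partners. The red cell lineage then passes through dividing, Kit-positive colony-forming cells and turns on globin and haem genes fully only in erythroblasts. Whole marrow mixes all such stages with granulocytes and their precursors, monocytes, lymphocytes and rare stem cells. The marrow group here is titled bulk and was itself sorted. Its cell make-up, and whether it matches whole marrow, was not tested. This group held the neutrophil gene S100a8 at a mean of 39781 FPKM, but also Cd34 at 150 and Kit at 54.6. The B-cell gene Ms4a1 averaged 2.20 FPKM in it.

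The 2 populations differed for 3437 of the 10648 tested genes, or 32.3%. MEP held more of 1279 genes (12% of those tested) and less of 2158 (20.3%), and the values of the groups did not overlap for 46.5% of tested genes. The differences were lopsided in size. Genes higher in MEP had a median difference of 0.77 and a largest of 2.36, while genes lower in MEP had a median of -1.59 and reached -9.98. There were 411 called genes lower by at least 3 log2 units and 0 higher by as much. Over all tested genes the median difference was 0.06. Rescaling the libraries to equal totals moved this median to 0.22 and called 2165 genes higher and 1880 lower, and quantile normalization moved it to 0.26 and called 2703 higher and 1706 lower. The share of calls that were higher in MEP was thus 37.2% as deposited, 53.5% with equal totals and 61.3% with quantile normalization.

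The count of genes higher in MEP also turned on single libraries. It was 1969 without MEP 1, 763 without MEP 3, and 625, 703 and 668 without marrow 1, 2 and 3, and it was 331 when the variance was shared with the study's 2 leukemic groups. Depth was similar in the 6 control libraries, with 6.72 to 8.77 M reads (M, 1e6) behind MEP and 7.17 to 8.99 M behind marrow. Of the leukemic groups, which enter the fit that shares the variance, leukemic MEP 3 had 0.572 M and Prdm16s marrow 2 had 1.15 M. What these shallow libraries add to that variance was not tested. The table held 9474 to 9589 genes at 1 FPKM or more in each MEP library and 10745 to 10817 in each marrow library. The 10 highest genes took 6.27 to 6.98% of all FPKM in MEP and 18.6 to 20.3% in marrow. Principal component 1 held 83.8% of the variance and parted the groups. On component 2, which held 9.11%, both libraries numbered 1 stood away from the others, MEP 1 at -34.8 and marrow 1 at -19.8 against 8.9 to 25.9.

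**Figure D1:**
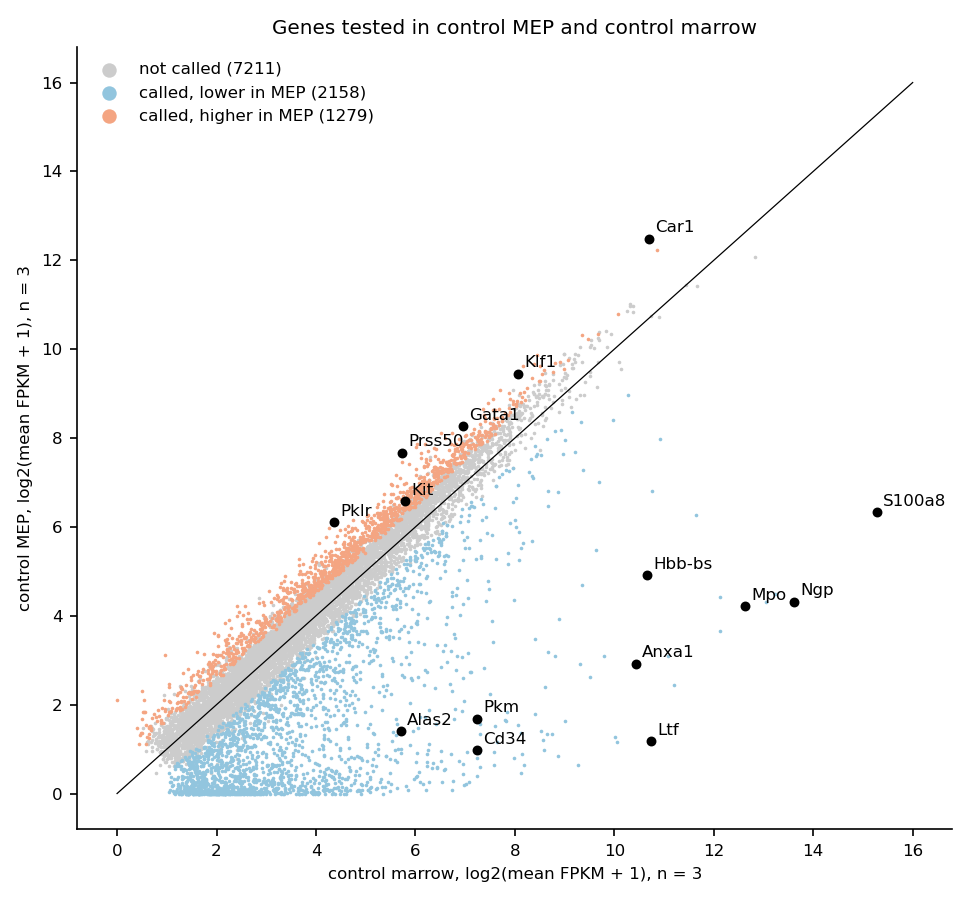
Mean level of each tested gene in control marrow (horizontal axis) and control MEP (vertical axis), both log2(mean FPKM + 1) over 3 libraries; colours give the call and the line marks equal levels. Genes higher in MEP lie close to the line (largest difference 2.36), while genes lower in MEP spread far below it, with fitted differences of -9.58 for S100a8, -9.61 for Ltf and -9.98 for Ngp.

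The antigens that define an MEP sort came first, as a check of the label. Kit, the stem cell factor receptor, was at 149, 65.7 and 69.5 FPKM in MEP 1, 2 and 3 and at 67.03, 48.2 and 48.6 in marrow 1, 2 and 3. The groups overlapped and Kit was not called (0.70 ± 0.30, limma adjusted p = 0.111). Cd34, which the usual MEP gate excludes, was at 1.27, 1.33 and 0.320 in MEP and at 182, 142 and 125 in marrow. Fcgr3, encoding CD16, was at 0.663, 1.11 and 0.479 in MEP and at 254, 246 and 255 in marrow. Both were near 0 in every MEP library and above 120 FPKM in every marrow library. Ly6a, encoding Sca-1, was listed at 0 in MEP 1 and MEP 3 and at 0.537 in MEP 2, against 9.09, 7.65 and 8.62 in marrow. The other Fc receptor gene, Fcgr2b, and the interleukin-7 receptor gene Il7r were lower as well, at 0.331 ± 0.315 against 28 ± 4.89 and 0.129 ± 0.0302 against 2.63 ± 1.78 FPKM (mean ± SD, n = 3).

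Markers that split the erythroid and megakaryocyte branches of the MEP gate moved in opposite directions. Eng, encoding endoglin, a co-receptor of the TGF-beta family that rises on erythroid progenitors, was at 53.7, 50.8 and 40.5 FPKM in MEP and at 22.7, 26.6 and 22.4 in marrow, with no overlap (0.98 ± 0.17, limma adjusted p = 0.0019). Cd9, a tetraspanin of megakaryocytes and platelets, was at 12.1, 30.7 and 14.6 in MEP against 182, 159.8 and 170.1 in marrow. Itga2b, encoding CD41, was at 1.05, 3.44 and 0.673 in MEP against 9.06, 10.03 and 7.61. Slamf1, encoding CD150, was low in both groups and was not called. Of the 10 sorting antigens, 1 was called higher and 7 lower. For 3 of the 7, no MEP library reached 1 FPKM. Entering the test through marrow alone has that meaning below. Genes with some MEP libraries at 1 FPKM, such as Cd34, Fcgr3 and Itga2b, also passed with the help of marrow. Only 3 of the 10 antigens reached 1 FPKM in all 6 libraries.

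Lineage antigens were close to absent in MEP. Of 12 listed, 7 passed the filter and all 7 were called lower, 5 of them entering through marrow alone. Ly6g, the granulocyte antigen, was at 0, 0 and 0.152 FPKM in MEP and at 77.3, 73.8 and 67.2 in marrow. Itgam, encoding CD11b, was at 0.0172, 0 and 0.0223 against 23.2, 13.96 and 9.97. Ly6c2, of monocytes and immature granulocytes, was at 0.134, 3.19 and 0.872 against 1048, 993 and 1048. Ms4a1, encoding CD20, was listed at 0 in the 3 MEP libraries. Cd4 averaged 0.0762 ± 0.0810 FPKM in MEP and 2.55 ± 0.452 in marrow. The pan-leukocyte gene Ptprc, encoding CD45, was lower but not absent, at 12.1, 5.64 and 6.81 against 45.2, 29.2 and 24.6. The other 5 antigens, among them the T-cell genes Cd3d, Cd3e and Cd8a, stayed under the filter in both groups. In bulk marrow none of the 5 exceeded 2.74 FPKM. Bulk samples do not separate fewer cells of a type from less RNA per cell, here and in every comparison that follows.

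**Figure D2:**
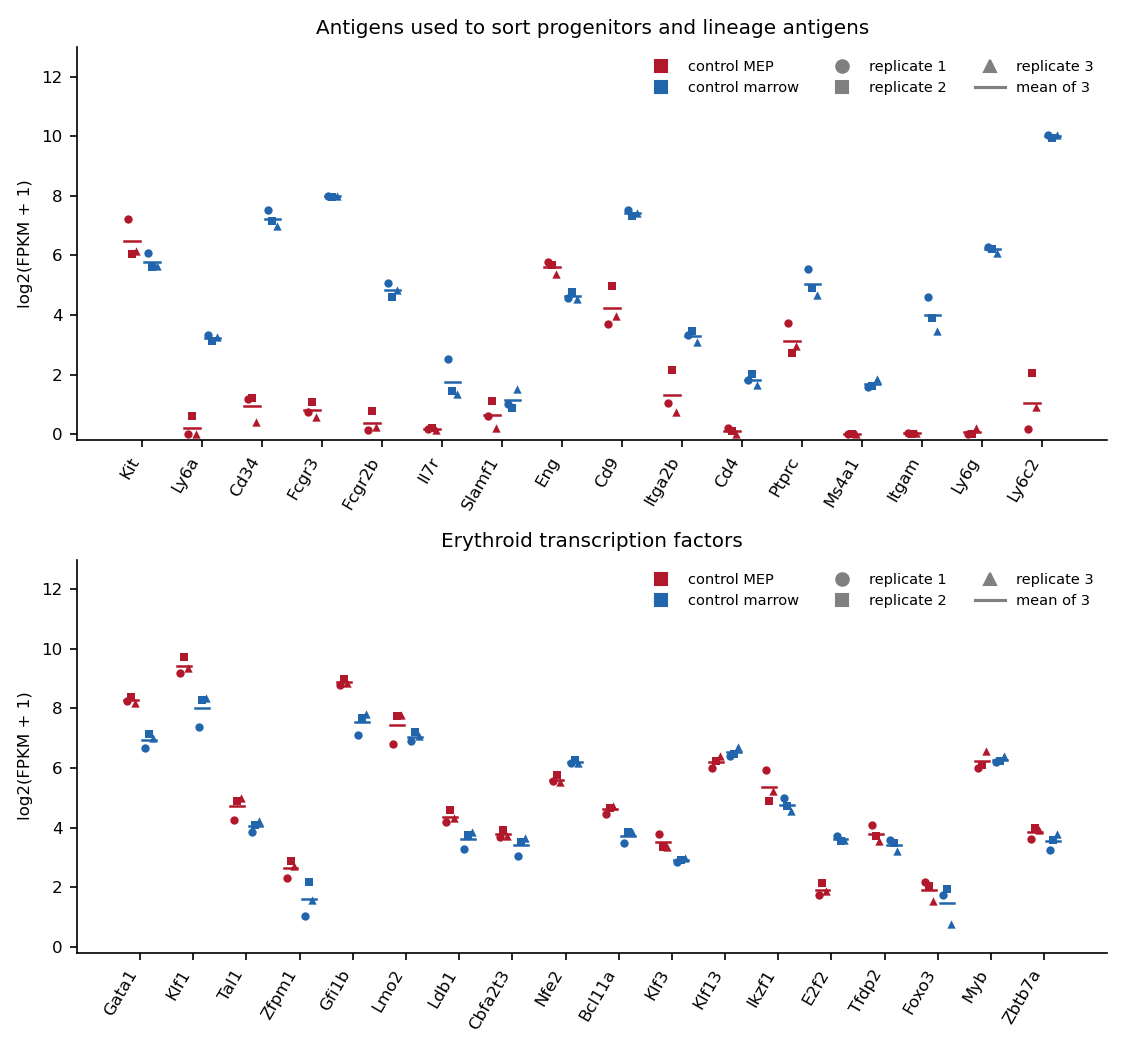
Level of each sorting antigen and of 6 tested lineage antigens (top) and of each erythroid transcription factor (bottom), as log2(FPKM + 1), in 3 control MEP libraries (red) and 3 control marrow libraries (blue); the bar is the mean. Cd34, Fcgr3, Ly6g and Ly6c2 are high in marrow and near 0 in MEP, Kit overlaps, and Gata1, Klf1 and Gfi1b are higher in MEP.

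The erythroid transcription factors were higher in MEP for 8 of 18 and lower for 2, beside 12% and 20.3% of all tested genes. Their median difference was 0.52. Gata1, the master regulator of red cells and megakaryocytes (chrX:7959260-7976663, GRCm38), was at 302, 335 and 289 FPKM in MEP and at 102, 139 and 129 in marrow (1.33 ± 0.18, limma adjusted p = 0.000342). Klf1, the activator of adult beta-globin and of many red cell genes, was at 585, 852 and 660.0 against 167, 309 and 329 (1.42 ± 0.28, adjusted p = 0.00392). Gfi1b, a repressor needed by both branches, was at 442, 509 and 463 against 138, 204 and 224 (1.34 ± 0.22, adjusted p = 0.00102). For all 3 the lowest MEP library lay above the highest marrow library.

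Members of the GATA1 and TAL1 complexes were called higher by smaller amounts: Zfpm1 (FOG1) by 1.04, Ldb1 by 0.74 and Tal1 by 0.67. Bcl11a, a repressor of embryonic and fetal globin, was higher by 0.89, and Klf3, a repressor that competes with KLF1, by 0.60. The call of Klf3 was lost without any 1 of the 6 libraries and that of Tal1 without any 1 except MEP 1. Zfpm1 and Ldb1 lost theirs without MEP 2, MEP 3 or marrow 1, Zfpm1 also without marrow 3 and Ldb1 also without marrow 2. The remaining complex members Lmo2 (0.39) and Cbfa2t3 (0.36) were not called. Myb, which holds progenitors in division, stood at 75.3 ± 17.2 FPKM in MEP and 76.5 ± 5.40 in marrow. It was not called, nor were Ikzf1, Klf13, Tfdp2, Foxo3 and Zbtb7a.

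The 2 factors lower in MEP were E2f2 and Nfe2. E2f2, a cell cycle factor that accumulates in late erythroblasts, was at 2.32, 3.36 and 2.65 FPKM in MEP and at 12.3, 10.6 and 10.8 in marrow (-1.70 ± 0.19, limma adjusted p = 0.000101). Nfe2, a factor of globin and platelet genes, was at 46.01, 52.9 and 45.3 against 70.9, 76.1 and 70.99 (-0.59 ± 0.15, adjusted p = 0.0155). Nfe2 was not called without MEP 3, marrow 2 or marrow 3. The number of factors called higher was 4 or 5 when MEP 2, MEP 3 or any single marrow library was left out, and 0 when the variance was shared with the leukemic groups.

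Early erythroid genes, those already on in Kit-positive erythroid progenitors, were higher in MEP nearly as a block. All 24 had a positive difference. Of them, 20 were called higher and 0 lower, beside 12% and 20.3% of all tested genes. The median difference was 1.13, beside 0.06 over all tested genes. Members of this list, as of every list here, were chosen with earlier results of these data known. The counts, and their contrast with the late erythroid list below, therefore describe the chosen genes and are not an independent test. Car1, encoding carbonic anhydrase 1 (chr3:14766214-14808365, GRCm38), was among the most abundant transcripts, at 5219, 6032 and 5991 FPKM in MEP and at 1436, 1673 and 1849 in marrow (1.80 ± 0.26, limma adjusted p = 0.000557). Epor, the erythropoietin receptor, was at 109, 150.5 and 108 against 30.6, 48.3 and 55.8 (1.45 ± 0.24, adjusted p = 0.00131). Ermap, the blood group Scianna protein, was at 223, 143 and 143 against 56.4, 59.2 and 57.8, and Atp1b2, a beta subunit of the sodium pump, at 275, 229.9 and 196 against 61.7, 75.7 and 79.8. For these 4 genes the groups did not overlap. The uncalled members included Gypc, a glycophorin, at 84.2 ± 6.36 against 63.3 ± 3.55, and the nuclear erythroid gene Hemgn, at 73.03 ± 14.9 against 55.03 ± 0.977.

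The same genes were well above 0 in bulk marrow. Over the 20 early genes called higher, the marrow mean was 27.8 to 57.7% of the MEP mean, with a median of 42.7%. The fit with the leukemic groups, which has a larger variance, called 7 of the 24 higher. Leaving out any single library kept the count within 1.5-fold of 20.

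Late erythroid genes, which peak in haemoglobin-making erythroblasts and reticulocytes, ran in both directions, with globin genes lowest. Of 23 tested, 8 were lower in MEP and 5 higher, beside 20.3% and 12% of all tested genes. Hbb-bs, an adult beta-globin gene, was at 8.39, 66.2 and 13.1 FPKM in MEP and at 1337, 2058 and 1466 in marrow (-6.26 ± 0.60, limma adjusted p = 2.97e-05). Hba-a2, an adult alpha-globin gene, was at 8.16, 49.1 and 16.8 against 435, 909.6 and 614 (-4.96 ± 0.53, adjusted p = 6.14e-05). The globin pair was chosen after its values were seen, and each gene has a near-identical copy, so the split of reads between copies is uncertain. MEP 2 held the most globin RNA of the MEP libraries and MEP 1 the least.

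Alas2, the erythroid enzyme that commits the cell to haem synthesis, was at 1.19, 2.38 and 1.41 in MEP against 52.2, 53.9 and 48.2 in marrow (-4.32 ± 0.21, limma adjusted p = 3.19e-07). Slc4a1, encoding the red cell anion exchanger band 3, was at 0, 0.296 and 0.0614 against 21.4, 12.6 and 15.7. No MEP library came near any marrow library for either gene. By contrast the values of Ube2l6, a ubiquitin-conjugating enzyme gene, overlapped, at 106, 139 and 110.2 against 127, 158 and 134. The late genes called higher included the tetraspanin gene Tspan33 (1.08 ± 0.29), which lost its call without MEP 2, MEP 3 or marrow 1. Ubac1, of a ubiquitin ligase (0.70 ± 0.19), lost its call without the same libraries or marrow 3. The count of late genes higher was 0 without MEP 3 or without marrow 1, 1 without MEP 2, 2 without marrow 2 and 3 without marrow 3, while the count lower stayed within 1.5-fold of 8.

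**Figure D3:**
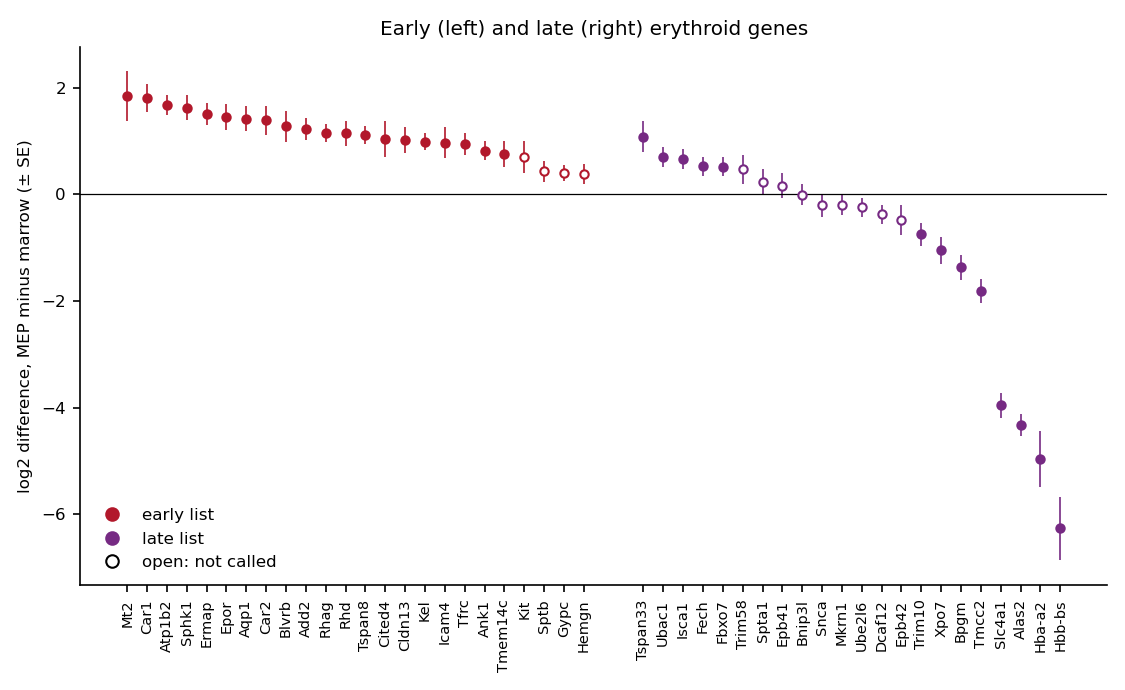
Log2 difference (MEP minus marrow, on log2(FPKM + 1), ± SE) of each early erythroid gene (left) and of 22 tested late erythroid genes (right); open points were not called. All 24 early genes lie above 0, while late genes run from 1.08 (Tspan33) down to -6.26 (Hbb-bs).

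Haem synthesis and iron genes also ran in both directions. Of 22 tested, 10 were higher in MEP and 4 lower, beside 12% and 20.3% of all tested genes. The median difference was 0.65. Steap3, the ferrireductase that readies transferrin iron for export from endosomes, was at 108, 95.6 and 83.1 FPKM in MEP and at 30.4, 44.7 and 44.8 in marrow (1.25 ± 0.20, limma adjusted p = 0.00097). Slc11a2, the transporter that carries that iron out (DMT1), was at 44.4, 37.5 and 36.3 against 16.4, 17.9 and 20.7. Alas1, the form of the first haem enzyme used outside the red cell lineage, was at 14.7, 14.7 and 11.96 against 198, 157 and 199 (-3.65 ± 0.17, adjusted p = 2.88e-07). So both forms of the first enzyme, Alas1 and Alas2, were lower in MEP while Steap3 and Slc11a2 were higher. Glrx5, of iron-sulfur cluster assembly, spread from 68.6 to 180 within MEP and was not called. The count higher was 6 without MEP 3 or without marrow 1.

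The 10 largest rises by rank were Prss50, Mt2, Ccdc68, Car1, Prelid2, Pklr, Aqp11, Atp7b, Bex4 and Atp1b2. The ranking leaves out some classes of genes, given with the methods, so its top rise of 1.92 is below the 2.36 reached over all called genes. Prss50, a serine protease gene known from testis, was at 163, 260.0 and 185 FPKM in MEP against 42.2, 49.9 and 65.3 in marrow (1.92 ± 0.23, limma adjusted p = 0.000135). Mt2, encoding metallothionein 2, which binds zinc and copper, varied between libraries of both groups, at 115, 341 and 243 against 30.6, 98.3 and 65.6. It was not called without MEP 3. Pklr, the pyruvate kinase of red cells and liver, was at 76.9, 71.9 and 55.3 against 16.1, 21.4 and 21.5 (1.74 ± 0.19, adjusted p = 8.31e-05). Atp7b, a copper exporter, was at 13.98 ± 1.80 against 3.77 ± 1.52, and Aqp11, an aquaporin, at 61.7 ± 6.65 against 18.1 ± 4.27. Ccdc68 averaged 17.5 ± 3.27 against 4.34 ± 1.43, Prelid2 176 ± 40.1 against 51.7 ± 9.09, and Bex4 13.4 ± 3.45 against 3.48 ± 1.07. Across these 10 genes marrow held 24.8 to 31.0% of the MEP level, and over all 1032 ranked rises the highest ratio of MEP to marrow means was 4.03. Each of the 10 was thus detected in bulk marrow.

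The 10 largest falls were the neutrophil and monocyte genes Ngp, Ltf, S100a8, Camp, S100a9, Chil3, Ly6c2, Lcn2, Mpo and Lyz2, where MEP held 0.074 to 0.276% of the marrow level. Promoters are printed for Prss50, Mt2 and Pklr, ranked 1, 2 and 6 of the rises, and for Ngp and Ltf, ranked 1 and 2 of the falls. Those of Ccdc68, Car1 and Prelid2, ranked 3, 4 and 5, are not reported here. Each runs from 250 bases before to 50 after the start, from RefSeq (GRCm38.p6). Capitals mark matches, on either strand, to 5 motifs: the GATA motif as AGATAA and, equally, its variant form TGATAA, the KLF motif CCNCNCCC, the C/EBP motif TTGCNNAA, the PU.1 motif GAGGAAGT and the E-box CACGTG. Matches that overlap form 1 run of capitals.

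Prss50 promoter, chr9:110857714-110858013, + strand, 1 of 2 in the table, no match: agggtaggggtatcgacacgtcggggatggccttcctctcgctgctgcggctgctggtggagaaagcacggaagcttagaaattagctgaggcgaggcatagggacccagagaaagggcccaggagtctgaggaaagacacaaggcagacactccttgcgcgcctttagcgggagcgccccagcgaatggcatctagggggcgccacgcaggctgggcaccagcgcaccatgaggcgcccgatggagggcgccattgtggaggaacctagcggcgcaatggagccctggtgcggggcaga
Mt2 promoter, chr8:94172368-94172667, + strand, 3 KLF matches and 1 C/EBP match: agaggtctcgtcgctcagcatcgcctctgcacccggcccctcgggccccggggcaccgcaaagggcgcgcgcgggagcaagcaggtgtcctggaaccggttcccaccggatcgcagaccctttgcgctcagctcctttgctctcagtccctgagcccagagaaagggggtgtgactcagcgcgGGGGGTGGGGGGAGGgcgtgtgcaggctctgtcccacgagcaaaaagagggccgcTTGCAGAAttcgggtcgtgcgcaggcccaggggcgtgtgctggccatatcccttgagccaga
Pklr promoter, chr3:89135892-89136191, + strand, 1 of 2 in the table, 1 GATA match: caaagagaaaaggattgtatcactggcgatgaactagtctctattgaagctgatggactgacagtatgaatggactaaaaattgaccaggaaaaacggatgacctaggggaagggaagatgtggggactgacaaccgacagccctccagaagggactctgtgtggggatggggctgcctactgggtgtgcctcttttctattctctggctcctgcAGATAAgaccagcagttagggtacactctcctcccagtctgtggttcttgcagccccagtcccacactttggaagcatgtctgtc
Ngp promoter, chr9:110419558-110419857, + strand, 2 C/EBP matches: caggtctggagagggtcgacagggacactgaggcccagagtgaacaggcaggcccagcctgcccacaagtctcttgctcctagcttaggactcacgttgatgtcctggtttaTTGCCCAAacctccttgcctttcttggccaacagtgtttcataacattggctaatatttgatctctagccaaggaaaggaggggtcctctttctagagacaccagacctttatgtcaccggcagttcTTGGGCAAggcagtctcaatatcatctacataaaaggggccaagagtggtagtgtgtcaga
Ltf promoter, chr9:111019042-111019341, + strand, 1 GATA match, 2 KLF matches and 1 C/EBP match: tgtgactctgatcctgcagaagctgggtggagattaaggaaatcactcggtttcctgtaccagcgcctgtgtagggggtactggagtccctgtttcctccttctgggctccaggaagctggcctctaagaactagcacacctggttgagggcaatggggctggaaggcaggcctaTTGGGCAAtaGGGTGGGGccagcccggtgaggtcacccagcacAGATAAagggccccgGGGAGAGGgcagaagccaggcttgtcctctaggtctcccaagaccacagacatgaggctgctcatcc

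These letters were then counted over all promoters. The GATA letters were in 12.6% of 1241 promoters of genes higher in MEP, 12.8% of 2255 promoters of genes lower in MEP and 9.6% of 7309 promoters of tested genes not called. The KLF letters were in 65.4, 67.4 and 66.5%. The PU.1 letters were in 2.82% of promoters of genes higher in MEP, 5.68% of those lower and 2.79% of those not called. The C/EBP letters were in 7.98, 11.2 and 7.94%, and the E-box in 13.1, 8.25 and 10.6%. Over all 32851 promoters in the table the shares were 18.6% for GATA, 49.5% for KLF, 10.8% for C/EBP, 3.2% for PU.1 and 7.15% for the E-box. Of 25 promoters of 18 early erythroid genes, 9 held GATA letters (36%) and 2 held C/EBP letters (8%). Of 14 promoters of 13 secondary and tertiary granule genes, 5 held C/EBP letters (35.7%) and 4 held GATA letters (28.6%). Some genes have several promoters, a match is only a description of these 300 bases, and no share was tested.

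Secondary and tertiary granule genes of neutrophils had the lowest median of the 32 lists. All 16 secondary and tertiary granule genes were called lower, with a median difference of -7.57, and 8 of them entered the test through marrow alone. Only 3 of the 16 reached 1 FPKM in all 6 libraries. Ngp, the neutrophilic granule protein (chr9:110419808-110423012, GRCm38), was at 1.76, 39.04 and 16.1 FPKM in MEP and at 14003, 10614 and 12965 in marrow (-9.98 ± 0.77, limma adjusted p = 6.55e-06). Ltf, encoding lactoferrin, was at 0.235, 1.77 and 1.78 against 2300, 1277 and 1539. Camp, the cathelicidin, was at 1.97, 43.1 and 11.2 against 8143, 8073 and 9330, and Lcn2, lipocalin 2, at 0.503, 1.58 and 1.64 against 1198, 896 and 1073. Mmp8, neutrophil collagenase, was at 0, 0.110 and 0.342 against 135, 129 and 111. Chil3, a chitinase-like protein of myeloid cells, was at 0.907, 8.39 and 3.99 against 3047, 1774 and 2212. In each case MEP 1 was lowest, and MEP 2 or MEP 3 highest, of the MEP libraries.

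Primary granule genes, made at the promyelocyte stage, were lower for 11 of 12. Mpo, myeloperoxidase, was at 3.67, 28.7 and 20.1 FPKM in MEP and at 6504, 5570 and 6951 in marrow. The serine protease gene Prss57 was at 1.60, 2.20 and 1.12 against 57.8, 58.6 and 66.9, and the elastase inhibitor gene Serpinb1a at 1.51, 4.14 and 1.75 against 381, 288 and 344. The member not called was Gusb, a lysosomal glucuronidase of most cell types, at 70.01, 63.5 and 64.9 against 80.3, 61.6 and 83.1.

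Of 24 mature neutrophil genes, 23 were lower in MEP, 16 of the 24 entering through marrow alone. S100a8 and S100a9, the paired calcium-binding proteins that make up calprotectin, were at 10.7, 159.9 and 69.1 and at 2.25, 48.3 and 13.6 in MEP. In marrow they were at 29100, 46268 and 43974 and at 8720, 10806 and 9359. Retnlg, a resistin-like protein, was at 0.344, 0.430 and 0.894 against 432, 867 and 539.6. The lectin gene Clec4d was the member not called, at 10.1, 24.5 and 12.1 against 23.1, 37.2 and 25.4. Primary granule, secondary and tertiary granule, and mature neutrophil genes held 2.88 to 3.44%, 5.36 to 7.47% and 8.44 to 11.2% of all FPKM in the marrow libraries. In MEP they held 0.0876 to 0.12%, 0.00244 to 0.0226% and 0.0392 to 0.0973%.

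Monocyte and macrophage genes were lower for all 21 tested, 14 through marrow alone, and 3 further members stayed under the filter. Of the 21, only 3 reached 1 FPKM in all 6 libraries. Lyz2, encoding lysozyme M, was at 3.35, 13.4 and 18.2 FPKM in MEP and at 4846, 4253 and 4290 in marrow. Ctss, the lysosomal protease cathepsin S, was at 1.34, 1.88 and 1.34 against 175, 158 and 135, and Lgals3, galectin 3, at 0.485, 0.347 and 0.631 against 83.3, 95.2 and 77.3. The regulators that direct these lineages were lower too, for 17 of 18, 11 of which entered through marrow alone. Cebpe, needed for secondary granules, was at 0.173, 0.435 and 0 against 78.3, 65.2 and 86.9. Irf8, of monocytes and dendritic cells, was at 0.145, 0.242 and 0.398 against 33.6, 31.7 and 33.6. Spi1, encoding PU.1, which opposes GATA1 and was chosen after its values were seen, was at 3.69, 5.36 and 2.11 against 177, 169.5 and 197 (-5.33 ± 0.25, limma adjusted p = 2.71e-07). Zeb2 was the regulator not called, at 4.61 ± 1.93 against 6.08 ± 1.21.

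Lymphoid genes were lower as well, though many were already low in marrow. Of 23 B-lymphoid genes, 18 were tested and all 18 were lower, 9 through marrow alone. Vpreb1, the surrogate light chain of pre-B cells, was at 0.419, 1.05 and 0.546 FPKM in MEP and at 28.1, 36.98 and 29.4 in marrow. Cd74, the invariant chain of MHC class II, was at 5.24, 12.5 and 5.04 against 413, 481 and 450.4. Among dendritic cell and MHC class II genes, 9 of the 11 tested were lower and 0 higher, 3 of the 11 entering through marrow alone. Only 9 of 21 T and NK genes passed the filter, 5 of them through marrow alone, and all 9 were lower. Nkg7, a granule membrane protein of cytotoxic cells, was at 16.2, 88.3 and 26.6 against 682, 838 and 869.8, with MEP 2 above the other MEP libraries. Nkg7 made up most of the summed FPKM of the list in marrow (748, 927 and 925) and is also on the primary granule list. The cell source of its RNA was not tested.

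Mast cell, basophil and eosinophil genes were lower for all 14 tested of 20, 8 of the 14 entering through marrow alone, with Prss34 at 0, 0.111 and 0.460 against 201, 86.6 and 116 and Mcpt8 at 0, 0 and 0.151 against 159, 67.6 and 91.4, both basophil proteases. For this list the median level in MEP, as a percent of the marrow mean, was 0 in MEP 1, 7.2 in MEP 2 and 0.104 in MEP 3. Of 19 stromal and endothelial genes, 4 passed the filter, 2 of them through marrow alone, and all 4 were lower, among them Runx2 (-2.55) and Pecam1 (-2.47). The fibroblast collagen genes Col1a1, Col1a2 and Col3a1 were at or below 0.343 FPKM in all 6 libraries.

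What remained of these genes in MEP differed between the 3 libraries. Taken as the median over members of the level relative to the marrow mean, secondary and tertiary granule genes stood at 0.0187% in MEP 1, 0.257% in MEP 2 and 0.229% in MEP 3. Mature neutrophil genes stood at 0.117, 0.452 and 0.278%, and monocyte and macrophage genes at 0.666, 1.2 and 0.854%. B-lymphoid genes stood at 1.53, 3.46 and 0.827%. MEP 2 was the highest library for each of these lists. The part of such residual RNA in the other results was not tested.

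**Figure D4:**
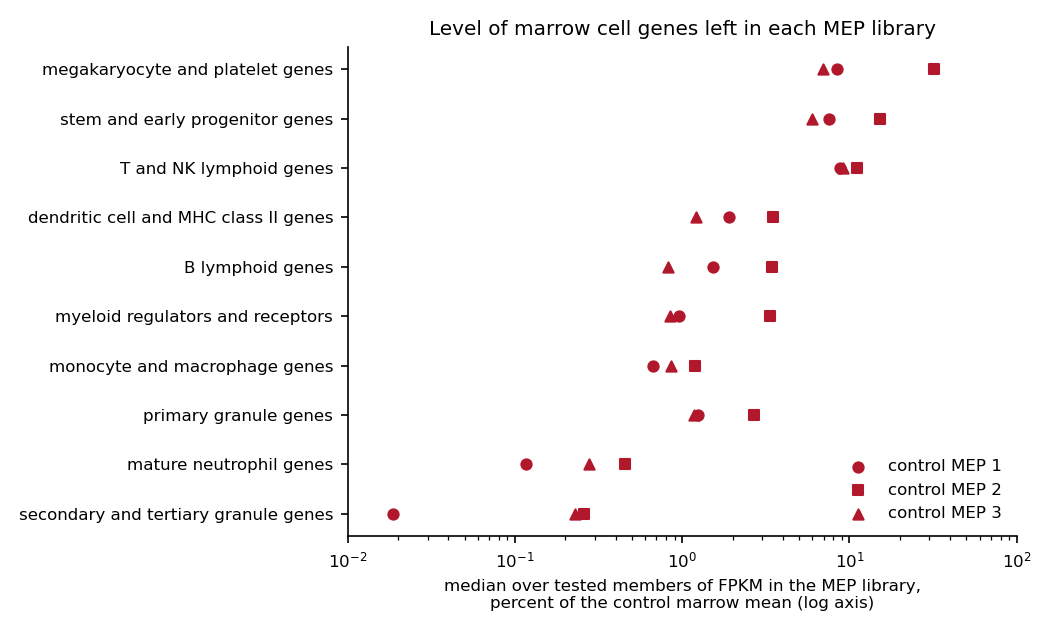
Median level over tested members of 10 gene lists in each control MEP library, as a percent of the mean of the 3 control marrow libraries, on a log axis. MEP 2 (squares) lies to the right in each of the 10 lists shown, from 0.257% for secondary and tertiary granule genes to 32% for megakaryocyte and platelet genes.

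Most megakaryocyte genes tested were lower in MEP than in marrow. Of 26 listed genes 20 were tested, 14 of which were lower and 1 higher, with 4 entering through marrow alone. Only 6 reached 1 FPKM in all 6 libraries, and of these 3 were lower and 1 higher. The median over all 26 was -1.22. Fli1, the factor that drives megakaryocyte over erythroid fate, was at 3.52, 4.66 and 2.55 FPKM in MEP and at 52.6, 32.9 and 35.1 in marrow (-3.17 ± 0.25, limma adjusted p = 7.11e-06). Pf4, platelet factor 4, was at 1.83, 102 and 7.60 against 99.3, 167 and 103, so that MEP 2 reached marrow levels. Pf4 (-3.15 ± 1.03, adjusted p = 0.0419) was not called when MEP 1, MEP 3 or any marrow library was left out. Pf4 was chosen after its values were seen.

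Gp5, a platelet glycoprotein gene, was the member called higher, at 40.4, 41.2 and 30.4 FPKM in MEP and at 13.3, 19.4 and 22.2 in marrow (1.003 ± 0.22, limma adjusted p = 0.00676). None of its partners in the von Willebrand factor receptor was called. Gp9 was at 5.03, 10.1 and 5.34 against 13.9, 9.99 and 10.02, Gp1ba at 5.84, 4.32 and 3.22 against 2.20, 1.85 and 3.99, and Gp1bb at 0.0515, 2.97 and 0.134 against 2.38, 5.13 and 1.95 (-1.23 ± 0.49, adjusted p = 0.0835). Without MEP 2, Gp9 and Gp1bb were called lower. In the fit with the leukemic groups 7 of the list were lower and 0 higher. Over this list the level relative to the marrow mean was 8.37% in MEP 1, 32% in MEP 2 and 6.96% in MEP 3.

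Genes of stem and early progenitor cells were lower for 17 of the 21 tested and higher for 1, with 8 entering through marrow alone and a median over all 24 of -1.86. Cd27, a receptor of multipotent progenitors and lymphocytes, was at 1.66, 1.94 and 1.80 FPKM in MEP and at 30.2, 36.6 and 30.04 in marrow. Flt3, the receptor of lymphoid-primed progenitors, chosen after its values were seen, was at 0.382, 0.441 and 0.0382 against 27, 17.8 and 18.1. Gata2, which GATA1 replaces as erythroid cells mature, was at 14.9, 18.8 and 12.8 against 22.6, 22.3 and 22.9. Its groups did not overlap, but it was not called (limma adjusted p = 0.0517). Mllt3, a chromatin reader of the super elongation complex, was the member called higher, at 8.41, 8.86 and 8.84 against 3.59, 4.49 and 3.46 (1.01 ± 0.19, adjusted p = 0.00243).

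Cytokine receptor and JAK2-STAT5 genes were mostly lower. Of 22 tested of 26, 15 were lower and 3 higher, the 3 being Epor, Il1rl1 and Stat5a, and 8 of the 22 entered through marrow alone. Over all tested genes, 20.3% were called lower and 12% higher. Among the 11 at 1 FPKM or more in all 6 libraries, 4 were lower and 3 higher. Stat5a, a transducer of erythropoietin signals, was at 25.1, 22.7 and 23.7 FPKM in MEP and at 13.7, 14.7 and 16.05 in marrow (0.65 ± 0.16, limma adjusted p = 0.0124). Csf3r, the G-CSF receptor, was at 0, 0.465 and 0.0690 against 28.4, 26.95 and 22.9. Csf2rb, the beta chain shared by the GM-CSF, IL-3 and IL-5 receptors, was at 0.0201, 0.0251 and 0 against 16.3, 16.1 and 13.3. The count higher was 1 without marrow 2, and Stat5a was not called without marrow 1 or marrow 2.

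**Figure D5:**
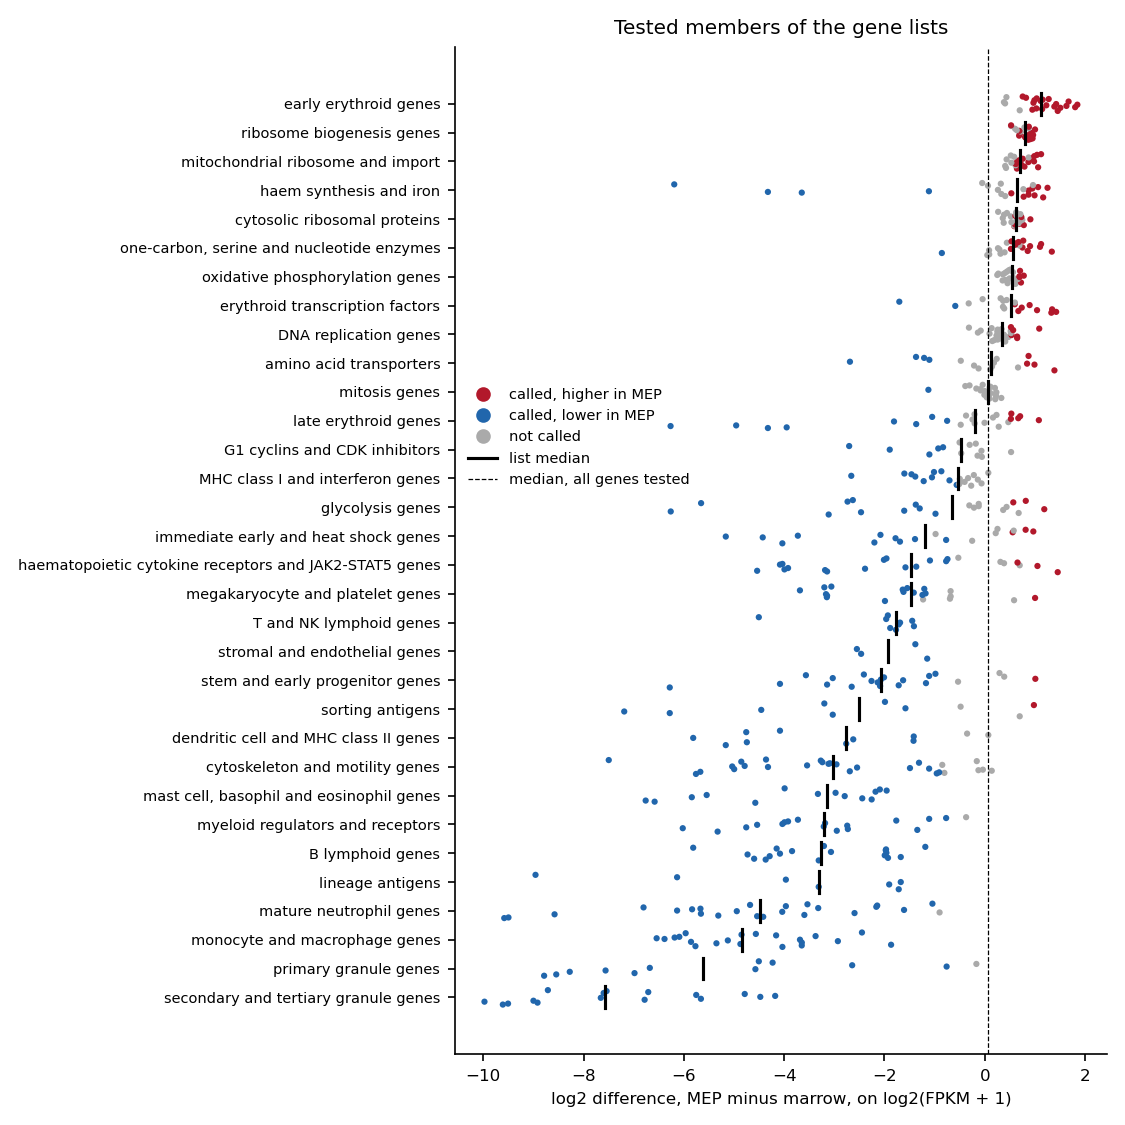
Log2 difference (MEP minus marrow, on log2(FPKM + 1)) of every tested member of the 32 gene lists, coloured by call, with the median of each list (bar) and of all tested genes (dashed line, 0.06). Granule, monocyte and neutrophil lists lie furthest to the left, and early erythroid, ribosome biogenesis and mitochondrial ribosome lists furthest to the right.

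Genes that build ribosomes were modestly higher in MEP. Of 22 ribosome biogenesis genes, 16 were higher and 0 lower, beside 12% and 20.3% of all tested genes, with a median of 0.81. Wdr12, of the complex that processes large subunit RNA, was at 101, 98.6 and 107 FPKM in MEP and at 48.9, 57.4 and 52.7 in marrow (0.93 ± 0.15, limma adjusted p = 0.00111). Nop58, a core protein of the small nucleolar particles that methylate ribosomal RNA, was at 349.7, 343 and 358 against 205, 201 and 187. The count was 9 without marrow 1 and 10 without marrow 3.

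All 26 cytosolic ribosomal protein genes had a positive difference, but only 7 were called higher, beside 12% of all tested genes. This count was 26 without MEP 1 and 0 without any other single library, and it was 22 with equal totals and 14 with quantile normalization. The median level of the list relative to the marrow mean was 106% in MEP 1, 208% in MEP 2 and 161% in MEP 3. Rpl3 was at 64.9, 79.8 and 73.2 FPKM in MEP and at 43.8, 49.4 and 50.3 in marrow, and Rpl4, not called, at 1845, 1874 and 1807 against 1183, 1291 and 1210. These genes have many near-identical copies, so their counts are uncertain.

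Of 23 genes of the mitochondrial ribosome and of protein import, 15 were higher and 0 lower, beside 12% and 20.3% of all tested genes. Their median was 0.70. Mrps22, of the small mitochondrial ribosomal subunit, was at 40.3, 48.4 and 47.96 FPKM in MEP and at 21.5, 23.4 and 22.6 in marrow, and Hspd1, the mitochondrial chaperonin, at 318, 224 and 249 against 130.0, 127 and 121. The count was 9 without MEP 3 and 8 without marrow 1. Of 22 oxidative phosphorylation genes, 5 were higher and 0 lower, beside 12% and 20.3% of all tested genes. The smallest p-values were those of Uqcrc2 of complex III (0.69 ± 0.16) and Ndufv1 of complex I (0.72 ± 0.18). The count of these genes higher was 17 without MEP 1 and 1 or 2 without any other single library, 14 with equal totals and 11 with quantile normalization. Ndufv1 lost its call without marrow 1 or 2.

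Enzymes of one-carbon, serine and nucleotide synthesis were higher for 12 of 22 and lower for 1, beside 12% and 20.3% of all tested genes. Cad, which starts pyrimidine synthesis, was at 28.5, 23.04 and 19.2 FPKM in MEP and at 8.98, 12.2 and 9.55 in marrow (1.12 ± 0.21, limma adjusted p = 0.00229). Atic, which completes purine synthesis, was at 38.6, 33.2 and 26.4 against 11.8, 16.3 and 15.9. Shmt1, the cytosolic serine hydroxymethyltransferase, was the enzyme lower in MEP, at 19.2, 17.4 and 13.3 against 31.9, 30.5 and 29.3. Leaving out marrow 1, 2 or 3 gave 6, 6 and 7 higher. Of 16 amino acid transporters, 4 were higher and 4 lower, beside 12% and 20.3% of all tested genes, with 2 entering through marrow alone. Among the 10 at 1 FPKM or more in all 6 libraries, 3 were higher and 0 lower. The glutamine transporter gene Slc38a5 was at 247, 298 and 277 against 83.1, 111 and 121, and the branched-chain carrier gene Slc43a1 at 41, 37.5 and 35.3 against 18.6, 21.3 and 22.3. Slc7a6 was lower, at 0.718, 1.75 and 0.770 against 11.9, 12.9 and 11.5. Without MEP 3 or without marrow 1 the count of transporters higher was 2.

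Few cell cycle genes passed the test between MEP and marrow. Of 30 DNA replication genes, 6 were higher and 0 lower (12% of all tested genes were called higher), with a median of 0.35. Ccne1, cyclin E1, was at 176, 191 and 187 FPKM in MEP and at 75.4, 98.2 and 86.96 in marrow (1.09 ± 0.17, limma adjusted p = 0.00073), and Orc6, of the origin recognition complex, at 113, 141 and 128 against 87.6, 78.6 and 75.95. Orc6 was not called without marrow 2 or marrow 3. Pcna, the sliding clamp, was not called (206 ± 20.4 against 157 ± 7.89). The count of 6 was 3 without MEP 2, 2 without marrow 1, 1 without marrow 2 or 3, and 10 with equal totals. Of 24 mitosis genes, 0 were higher and 1, Kif23 of the central spindle, was lower, beside 12% and 20.3% of all tested genes. Kif23 was not called without MEP 3 or without marrow 1. Without MEP 1, 1 mitosis gene was called higher and 3 lower.

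Among G1 cyclins and CDK inhibitors, 5 of the 13 tested were lower and 0 higher, beside 20.3% and 12% of all tested genes. Cdkn2d, encoding the inhibitor p19INK4D, was at 12.3, 20.8 and 11.2 FPKM in MEP and at 92.4, 102 and 100.2 in marrow. Ccnd3, the cyclin D form that sets the number of divisions in late erythroid cells, was at 28.8, 36.5 and 30.8 against 63.2, 68.1 and 78.6. Without marrow 1 or without marrow 3 the count lower was 3, and without MEP 1 there was 1 called higher.

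Glycolytic genes were more often lower than higher. Of 20 tested, 3 were higher in MEP and 10 lower, beside 12% and 20.3% of all tested genes, with 2 entering through marrow alone. The median was -0.65. Among the 16 at 1 FPKM or more in all 6 libraries, 2 were higher and 6 lower, with a median of -0.17. Pyruvate kinase was split by gene, with Pkm, the form of most tissues, at 1.45, 3.97 and 1.24 FPKM in MEP against 150.2, 139 and 164 in marrow (-5.66 ± 0.29, limma adjusted p = 3.84e-07), while Pklr was higher as given above. Hk3, the myeloid hexokinase, was at 0.0985, 0.165 and 0.342 against 103, 76.3 and 95.4. Pfkm, the muscle and red cell form of phosphofructokinase, was at 75.5, 52.3 and 52.7 against 23.7, 25.3 and 27.6 (1.19 ± 0.19, adjusted p = 0.000926), and Slc16a1, a lactate carrier, at 139.6, 81.4 and 83.8 against 59.8, 53.2 and 53.6. Aldoa, the main aldolase, overlapped, at 337 ± 60.3 against 390.2 ± 53.7. Without marrow 2 or without marrow 3 the count higher was 1, and Slc16a1 was among the calls lost.

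Genes of the cytoskeleton and of motility were lower for 22 of 28 and higher for 0 (2 with quantile normalization), with a median of -3.02. Of all tested genes, 20.3% were lower and 12% higher. Of the 28, 3 entered through marrow alone. Among the 23 at 1 FPKM or more in all 6 libraries, 17 were lower and 0 higher. Anxa1, annexin A1, was at 5.46, 8.003 and 6.31 FPKM in MEP and at 1738, 1162 and 1240 in marrow, and Anxa2 at 4.52, 5.30 and 5.35 against 122, 130.2 and 118. Immediate early and heat shock genes, which also answer to cell handling, were lower for 10 of the 18 tested and higher for 3. Zfp36, an mRNA decay factor, was at 0.912, 1.75 and 0.871 against 61.6, 89.4 and 79.2, and Btg2, an antiproliferative gene, at 3.17, 4.36 and 4.26 against 101, 120.0 and 93.5. The chaperone gene Hsp90aa1 was higher, at 146, 202 and 178 against 75.7, 107 and 85.2. The count higher was 1 without MEP 3, marrow 1 or marrow 3. Of 20 MHC class I and interferon genes, 10 were lower and 0 higher (1, B2m, with quantile normalization), among them the interferon-induced genes Mx1 (0.0268 ± 0.0464 against 1.07 ± 0.00963) and Ifit3 (0.138 ± 0.140 against 1.97 ± 0.369), both low in marrow too. Mx1 and Ifit3 were not called with quantile normalization, nor was Mx1 in the fit with the leukemic groups.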

How the data were processed

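Values are FPKM, computed and deposited by the authors. Per the submitters' processing notes, CASAVA, bcl2fastq, STAR 2.5.3a, DESeq2 1.18.1 and the mm10 build were used. The sources used here name neither the read counter nor the annotation. cDNA was made with Smart-seq2, per the labels' protocols, a method without strand information. Whole reads were recovered from the FPKM values of all 16728 genes with a value (tolerance 0.02), which gave the depths.

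The 6 control libraries were fitted with limma 3.58.1 in R 4.3.3 (trended variance, 4 residual degrees of freedom) on log2(FPKM + 1), and 16 other fits were made, each changing 1 choice. The fit was tested on simulated data. A 2-sided exact permutation test of 3 against 3 samples cannot go below 0.1. Named genes were the 10 largest differences each way among called genes whose higher group averaged at least 10 FPKM without overlap, and, in each of 32 lists, the 2 called members of smallest p each way and up to 3 uncalled members of highest mean. The ranking of the largest differences left out unnamed gene models, receptor segments, pseudogenes, Y-linked genes and Xist. All sorting antigens and erythroid factors and most tested lineage antigens were named. Some genes the rule selects are not reported here by name, but stay in the counts. Members and lists were chosen with earlier results of these data known. Of 24107 gene numbers, 24061 matched RefSeq (GRCm38.p6), as did promoters of 1028 of 1279 genes higher in MEP and 1699 of 2158 lower. Python 3.11.15 with pandas 2.3.3 and matplotlib 3.10.9 was used.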

Additional observations from a re-analysis of the deposited data

How the results depend on the processing

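No gene called in the comparison was called in the opposite direction under any of the 16 alternatives. The calls numbered 3437, with 1279 higher and 2158 lower. They numbered 2016 (928 lower) among genes at 1 FPKM or more in all 6 libraries, where fewer genes are tested, and 1749 (331 higher, 1418 lower) with all 4 groups in 1 fit. Requiring 1 log2 unit as well left 1898, of which 259 were higher. The number higher was 2165 with equal totals, 2703 with quantile normalization and 2200 with array weights, which gave MEP 1 a weight of 0.319. Leaving out 1 library at a time gave 2521 to 4298 calls, 625 to 1969 of them higher and 1891 to 2329 lower. With the replicate number as a block, 4760 genes were called, 2253 higher and 2507 lower. Deviations of same-numbered libraries correlated at 0.526, 0.317 and 0.0786. MEP 1 and MEP 2 each correlated best with the marrow library of the same number, and MEP 3 with marrow 2 (0.138). The main fit did not pair the samples, and whether same-numbered libraries share a batch was not tested.

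Of 118 named genes called, 83 were called under each alternative that tested them. The all-groups fit lost Car1, Epor, Klf1, Gata1 and Gfi1b, among others. That fit includes the shallow libraries leukemic MEP 3 and Prdm16s marrow 2, at 0.572 and 1.15 M reads. Leaving out MEP 1 gave calls to Glrx5, Lmo2, Pcna, Rpl4 and Zeb2, and leaving out MEP 2 to Clec4d, Gata2, Gp1bb, Gp9 and Ikzf1. The sign of B2m, not called in the comparison, turned from -0.27 to 0.96 with a call under quantile normalization. Signs turned without a call for Myb (0.13 with equal totals, 0.15 with array weights, and from -0.22 to 0.068 leaving out 1 library), Gusb (0.0073 with equal totals) and Slamf1 (0.41 with quantile normalization). The list median turned to 0.70 for sorting antigens and 0.31 for cytokine receptors among genes at 1 FPKM or more in all 6 libraries. It turned to -0.071 (quantile normalization) for mitosis genes, whose median ran from -0.057 (without MEP 1) to 0.10 (without marrow 1) leaving out 1 library, and to -0.033 (array weights) for amino acid transporters. The cause of these shifts was not tested. Depth of 6.72 to 8.99 M reads and 3 libraries a group limit what can be called among low genes.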

Other observations

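Among the 20 rises ranked next after the 10 largest, 10 are given here, several of them better known from other tissues. Slc25a21, a mitochondrial carrier of oxoadipate, was at 40.8, 35.1 and 38.04 FPKM in MEP and at 11.4, 11.4 and 12.1 in marrow (1.62 ± 0.16, limma adjusted p = 3.37e-05), with little spread in either group. Sphk1, the kinase that makes sphingosine 1-phosphate, was at 242, 310.0 and 273 against 62.5, 101 and 108. Ces2g, a carboxylesterase, was at 258, 181 and 171 against 60.5, 67.8 and 75.6, and Hpn, the membrane serine protease hepsin, known from liver, at 108, 136 and 127 against 35.9, 46.6 and 50.3. Atp4a, the catalytic subunit of the gastric proton pump, was at 11.9, 11.5 and 10.1 against 3.06, 2.89 and 2.66. Zg16, a lectin known from pancreas and gut, was at 28.2, 41.2 and 33.6 against 5.47, 18.2 and 11.4, and Gdf3, a TGF-beta family ligand, at 20.1, 32.5 and 27.4 against 5.02, 11.1 and 11.8. Rab4a, Spon2 and Epdr1 were higher by 1.58, 1.58 and 1.46. The ranking admits only genes whose groups do not overlap, so all 10 lack overlap by selection. The fit that shared its variance with the leukemic groups lost Sphk1, Ces2g, Atp4a, Gdf3, Rab4a and Epdr1.

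The plasma cell gene Jchain, chosen after its values were seen and under the filter, was at 72.9, 0.257 and 80.7 FPKM in marrow 1, 2 and 3 and at or below 0.0511 in MEP.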
